A study of Rattus norvegicus with 6 samples.

Results

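The 9 genes described here encode cAMP-dependent protein kinase (PKA) and its protein inhibitors: the catalytic subunits Prkaca and Prkacb, the type I regulatory subunits Prkar1a and Prkar1b, the type II regulatory subunits Prkar2a and Prkar2b, and the inhibitors Pkia, Pkib and Pkig. They were taken by symbol from the 32623 gene rows of the deposited table, where each has 1 row. The libraries came from C6, an established rat glioma cell line. Cells had been treated for 24 h with FSK (forskolin, a plant diterpene that activates adenylyl cyclase) in 3 libraries, or with DMSO, the solvent control, in another 3. Both groups were grown in the same serum-containing medium. The forskolin dose is not given in the sources used here. The labels number the libraries without saying that they came from separate cultures, so the p-values below measure the spread between these libraries, which may be technical.

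In its inactive form PKA is a complex of a pair of regulatory and a pair of catalytic subunits. When adenylyl cyclase makes cAMP, the regulatory subunits bind it and release active catalytic subunits, which phosphorylate CREB among many other proteins. The small PKI proteins bind free catalytic subunits as pseudosubstrates, block them and carry them out of the nucleus. In C6 cells, a classic glial model of cAMP signalling, forskolin has long been used to switch the kinase on.

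The most abundant regulatory transcript and the most abundant inhibitor transcript rose in FSK, while both catalytic transcripts, the other 3 regulatory transcripts and the inhibitor transcript Pkia had lower values. Prkar1a was 1.44-fold and Pkig 1.38-fold higher in FSK. Pkia fell to 0.397 and Prkacb to 0.515 of the DMSO level. Prkar1b, Prkar2b and Prkaca fell less, Prkar2a did not pass the test, and Pkib had too few counts to be tested. Of the 9 genes, 8 passed the filter on low counts. Of these 8, 2 rose, 5 fell and 1 did not pass at an adjusted p of 0.05 (edgeR quasi-likelihood test with Benjamini-Hochberg adjustment over all 14166 tested genes). The falls numbered 3 without FSK replicate 2, FSK replicate 3 or DMSO replicate 2, where Prkaca and Prkar2b did not pass. Over all tested genes 39.4% passed, 19.6% as higher and 19.8% as lower. In each of the 8 the FSK libraries lay entirely above or below the DMSO libraries, which held for 53% of all tested genes. The median absolute log2 fold change of the 8 was 0.50, and that of all tested genes was 0.31. Only Pkia differed by at least 2-fold. In these bulk samples, fewer cells carrying a transcript and less of it per cell cannot be told apart.

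**Figure D1:**
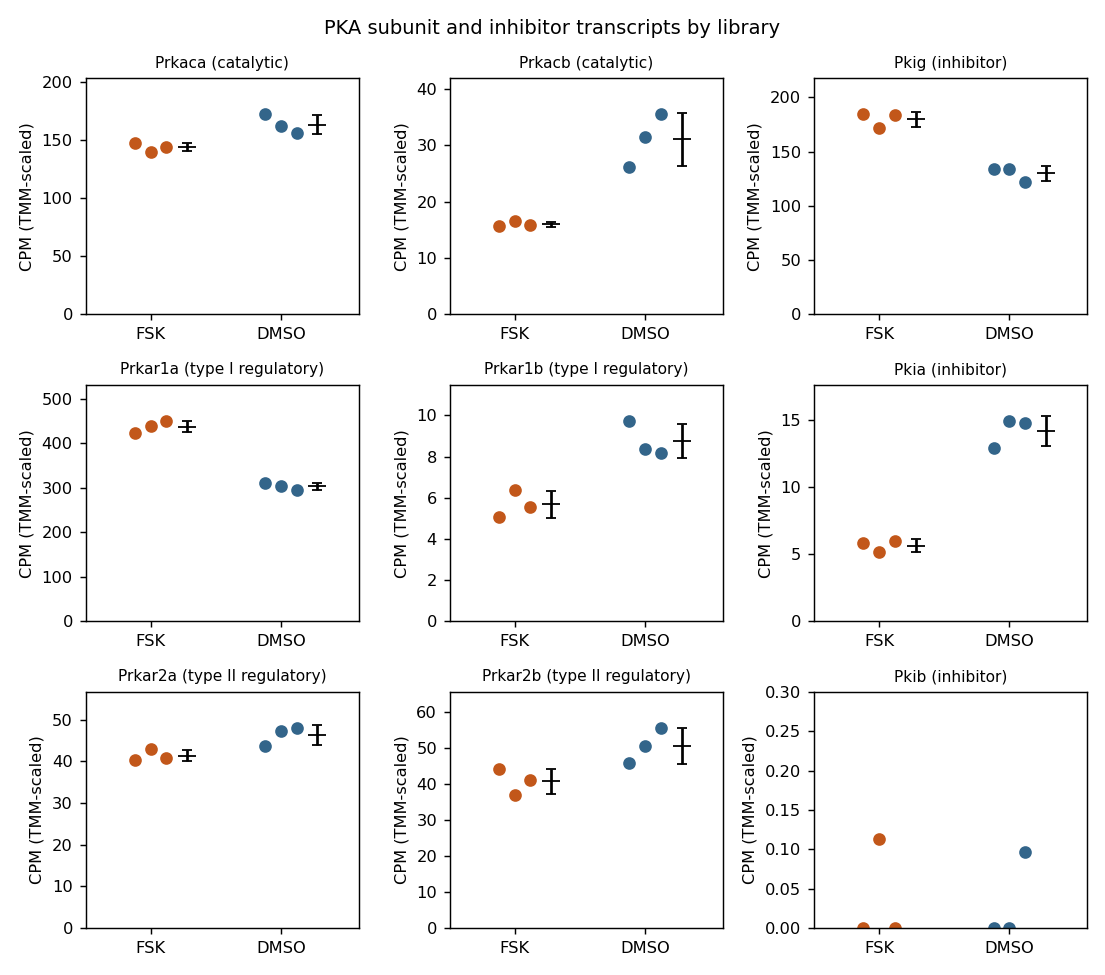
Level of each gene in every library, in CPM (counts over the TMM-scaled library size), with FSK left and DMSO right in each panel. Points are libraries, and bars beside them give the mean ± SD (n = 3). The 3 FSK points lie above all DMSO points for Prkar1a and Pkig and below them for Prkaca, Prkacb, Prkar1b, Prkar2a, Prkar2b and Pkia, while Pkib has counts in 1 library of each group and carries no bar.

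The start-site sequences of 4 of the genes are shown because they belong to the pair that rose and to the catalytic pair, and because 3 of them hold the short motif searched for. RefSeq windows on the rat build GRCr8, which run from 250 bases before to 50 bases after an annotated start, were found for 7 of the 9 genes, in 10 windows. Pkia and Prkar2a had no entry. The search was for the cAMP response element TGACGTCA, the palindrome that CREB binds, and for its short core TGACG, on both strands. Each full element also contains the core. No member window held the full element, which 1.83% of all 33469 windows hold. The core was in 3 of the 10 windows, against 21.2% of all windows. Counted by gene, it was in 3 of the 7, against 23.04% of all 27457 genes with windows. These shares were not tested. In the lines below the letters of the core, TGACG or its reverse complement CGTCA, are in capitals.
Prkaca, chr19:41083140-41083439, minus strand: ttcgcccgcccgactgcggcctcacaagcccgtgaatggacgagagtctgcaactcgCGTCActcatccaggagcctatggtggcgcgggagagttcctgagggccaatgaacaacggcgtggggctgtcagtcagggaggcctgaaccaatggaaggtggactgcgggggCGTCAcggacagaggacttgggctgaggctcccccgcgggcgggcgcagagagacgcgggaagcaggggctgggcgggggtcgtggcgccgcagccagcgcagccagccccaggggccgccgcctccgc
Prkacb, chr2:238386266-238386565, minus strand: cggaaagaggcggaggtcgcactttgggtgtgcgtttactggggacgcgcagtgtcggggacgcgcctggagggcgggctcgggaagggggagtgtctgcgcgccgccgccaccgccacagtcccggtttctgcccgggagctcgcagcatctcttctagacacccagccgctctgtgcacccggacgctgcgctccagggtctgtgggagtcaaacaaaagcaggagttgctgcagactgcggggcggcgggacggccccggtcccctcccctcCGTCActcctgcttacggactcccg
Prkar1a, chr10:95120287-95120586, plus strand: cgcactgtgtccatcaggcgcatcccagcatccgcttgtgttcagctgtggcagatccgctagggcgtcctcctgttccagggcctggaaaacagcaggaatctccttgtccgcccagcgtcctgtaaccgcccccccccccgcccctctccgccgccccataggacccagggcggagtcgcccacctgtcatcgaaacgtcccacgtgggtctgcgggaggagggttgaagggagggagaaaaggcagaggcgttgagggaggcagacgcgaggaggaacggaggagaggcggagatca
Pkig, the last of its 3 annotated starts, chr3:172786025-172786324, plus strand: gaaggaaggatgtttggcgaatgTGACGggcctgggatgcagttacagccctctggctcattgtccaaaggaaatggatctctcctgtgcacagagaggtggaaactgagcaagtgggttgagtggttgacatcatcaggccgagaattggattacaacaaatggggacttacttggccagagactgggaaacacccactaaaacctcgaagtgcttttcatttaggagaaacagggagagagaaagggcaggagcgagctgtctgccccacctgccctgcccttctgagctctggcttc
Prkaca has 2 core matches, whose first bases lie 189 and 75 bases before the start, on the strand opposite to the gene's own. Prkacb has 1, whose first base is base 30 when the start is counted as base 1, also on the opposite strand. Pkig has 1 at its last start, 227 bases before it, and none at its first and second starts. These are matches of letters, and no binding was measured here.

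Prkaca, the main catalytic subunit gene of most tissues, is on chromosome 19 (ENSRNOG00000005257; chr19:25095089-25118860, plus strand; this and the other gene positions are those of the deposited table, on Rnor_6.0). GRCr8, the build of the windows above, places this gene on the minus strand instead. Prkaca had 147.5, 140.3 and 144.3 CPM in FSK, against 172.4, 162.5 and 156.1 CPM in DMSO. The groups did not overlap, but the gap between the highest FSK and the lowest DMSO library was small. Its log2 fold change was -0.18 ± 0.06 (SE; adjusted p = 0.03), and 68.1% of tested genes had a larger absolute change. The call is a weak one. Its adjusted p was 0.111, 0.0824, 0.0973 and 0.0849 without FSK replicate 2, FSK replicate 3, DMSO replicate 1 and DMSO replicate 2. Over all alternatives it ran from 0.00422, with limma on log2(FPKM + 1), to 0.111.

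Prkacb, the second catalytic subunit gene, which is prominent in brain, changed more. It lies on chromosome 2 (ENSRNOG00000004978; chr2:252605307-252691886, minus strand). Its levels were 15.7, 16.5 and 15.8 CPM in FSK, against 26.2, 31.5 and 35.5 CPM in DMSO. The FSK libraries were nearly equal, while DMSO replicate 1 was lower than the other two DMSO libraries. The log2 fold change was -0.96 ± 0.12 (adjusted p = 0.000515). It ranged from -1.07 to -0.86 when each library was left out in turn. The table gives 1 transcript for Prkacb, so its known splice forms cannot be told apart.

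Prkar1a encodes the regulatory subunit RIα, the main and largely cytosolic type I subunit, and its loss in mice and humans leaves PKA overactive. It lies on chromosome 10 (ENSRNOG00000049876; chr10:97940705-97957336, plus strand). Prkar1a had 423.7, 438.3 and 449.2 CPM in FSK, against 310.4, 304.2 and 294.2 CPM in DMSO. It was the most abundant member in every library, and the groups were far apart relative to their spread. The log2 fold change was 0.53 ± 0.05 (adjusted p = 8.79e-05). RefSeq lists a short pseudogene of Prkar1a, Prkar1a-ps1, 255 bases long. How the authors assigned reads shared with such copies is not given in the sources used here.

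Prkar1b, whose product RIβ is best known from neurons, moved the other way. It lies on chromosome 12 (ENSRNOG00000028733; chr12:17614632-17712373, plus strand). Prkar1b had 5.08, 6.38 and 5.56 CPM in FSK, against 9.72, 8.39 and 8.16 CPM in DMSO. All FSK libraries were below all DMSO libraries. Prkar1b changed by a log2 fold of -0.63 ± 0.14 (adjusted p = 0.00887).

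Of the type II genes, Prkar2a and Prkar2b, the second passed and the first did not. Their products RIIα and RIIβ are the subunits that most A-kinase anchoring proteins hold at membranes and the cytoskeleton. Prkar2b (ENSRNOG00000009079; chr6:51265515-51356383, minus strand) had 44.1, 37.1 and 41.1 CPM in FSK, against 45.8, 50.6 and 55.6 CPM in DMSO. FSK replicate 1 lay close below DMSO replicate 1. The log2 fold change was -0.31 ± 0.09 (adjusted p = 0.0311). The adjusted p was 0.105, 0.0802, 0.0796 and 0.0787 without FSK replicate 2, FSK replicate 3, DMSO replicate 2 and DMSO replicate 3, and it ran from 0.00829 to 0.105 over all alternatives. A microRNA gene annotated inside Prkar2b, AABR07063824, had 0 counts in every library. It is the only other row of the table that overlaps a member.

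Prkar2a (ENSRNOG00000020284; chr8:117486083-117546370, plus strand) had 40.4, 43.0 and 40.8 CPM in FSK, against 43.6, 47.3 and 48.0 CPM in DMSO. The highest FSK library was just below the lowest DMSO library. The log2 fold change was -0.16 ± 0.07, with a 95% interval of -0.31 to -0.01 before adjustment and an adjusted p of 0.0899. It passed without DMSO replicate 1 (-0.20, adjusted p = 0.0377). With limma on log2 FPKM at pseudocounts of 1, 0.1 and 5 it also passed (adjusted p = 0.0349, 0.0336 and 0.0384). Those FPKM values carry no TMM factor. In these limma fits the median log2 fold change over all genes was -0.06, -0.08 and -0.02, against -0.01 in the main fit. Whether this offset has a part in the Prkar2a calls was not tested. The adjusted p of Prkar2a over all alternatives ran from 0.0336 to 0.231.

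Pkia, the prototype PKA inhibitor first described in muscle, had the largest fold change of the 8 tested genes. It lies on chromosome 2 (ENSRNOG00000012095; chr2:96595088-96668222, minus strand). Pkia had 5.78, 5.11 and 5.98 CPM in FSK, against 12.9, 14.9 and 14.7 CPM in DMSO. Every FSK library was at or below 5.98 CPM and every DMSO library at or above 12.9 CPM. On the log2 scale Pkia changed by -1.33 ± 0.12 (adjusted p = 9.39e-05), and 7.5% of tested genes had a larger absolute change.

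Pkig, the inhibitor found in many tissues, changed in the opposite direction. It lies on chromosome 3 (ENSRNOG00000010235; chr3:160047296-160115177, plus strand). Pkig had 184.3, 172.1 and 183.7 CPM in FSK, against 134.0, 134.1 and 122.1 CPM in DMSO. The lowest FSK library was well above the highest DMSO library. On the log2 scale Pkig changed by 0.47 ± 0.06 (adjusted p = 0.000552).

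Pkib, the testis-enriched inhibitor, was close to undetected. It lies on chromosome 20 (ENSRNOG00000000811; chr20:40618128-40712592, plus strand). Pkib had 0, 8 and 0 counts in FSK libraries 1 to 3, against 0, 0 and 8 counts in DMSO libraries 1 to 3. At this depth no difference was detectable.

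**Figure D2:**
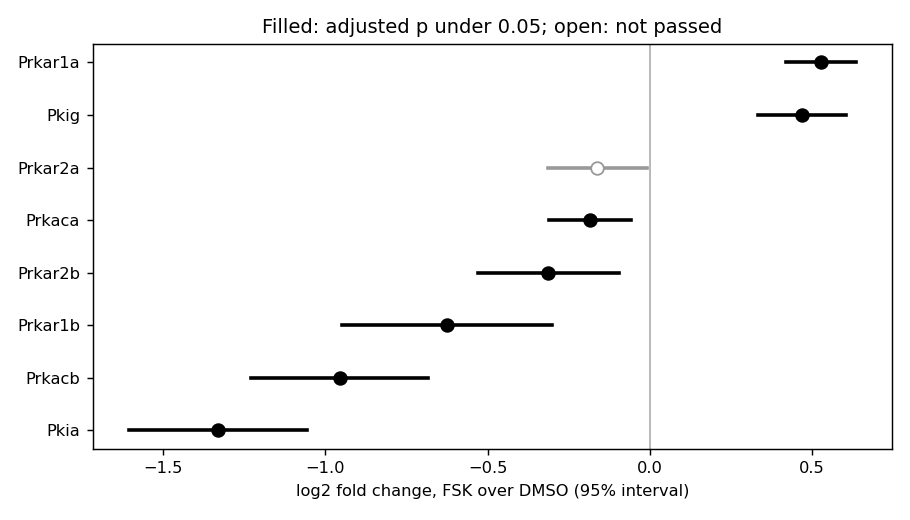
Log2 fold change, FSK over DMSO, of the 8 tested genes with 95% intervals from the edgeR fit (n = 3 libraries per group). Prkar1a (0.53) and Pkig (0.47) lie right of 0, the other 6 left of it down to Pkia (-1.33), and the open point is Prkar2a, whose adjusted p was 0.0899.

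To compare the genes with each other, the deposited FPKM values, which are per transcript length, were used. In FSK, Prkar1a averaged 290.2 ± 5.20 FPKM (SD, n = 3) and Pkig 177 ± 6.93, above Prkaca at 61.8 ± 1.94. Below these came Prkar2a (16.3), Prkacb (13.6), Prkar2b (11.9), Prkar1b (5.01) and Pkia (2.71). In DMSO, Prkar1a averaged 211 ± 2.29 FPKM, Pkig 134 ± 5.17 and Prkaca 73.6 ± 2.56. The lower levels in DMSO were those of Prkacb (27.7), Prkar2a (19.1), Prkar2b (15.5), Prkar1b (8.11) and Pkia (7.17). Neighbours in each order did not overlap between libraries. The only change of order was that of Prkacb, which stood below Prkar2a in FSK and above it in DMSO. Prkar1a exceeded 97.3% and Pkig 95.5% of tested genes in mean FPKM over all libraries, and Prkaca 89.6%. These levels rest on the transcript lengths implied by counts and FPKM, from 991 bases for Pkig to 3350 for Prkar2b.

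Summed by class, catalytic transcripts were lower in FSK, and regulatory and inhibitor transcripts were higher, with Prkar1a and Pkig making up most of those sums. The catalytic sum was 77.5, 74.3 and 74.4 FPKM in FSK, against 99.4, 100.8 and 103.6 FPKM in DMSO. The regulatory sum was 318, 325 and 327 FPKM in FSK, against 253.5, 253.8 and 253.7 FPKM in DMSO. The inhibitor sum was 186, 172 and 182 FPKM in FSK, against 143, 146 and 136 FPKM in DMSO. For all 3 sums the groups were separate, as the CPM values were for 53% of all tested genes taken singly. The sums add genes chosen as a set and carry no test. FPKM is scaled to library totals without the TMM factors, which were 0.964 to 0.989 in FSK and 1.01 to 1.04 in DMSO. Set against TMM-scaled CPM, FPKM therefore lies lower in FSK relative to DMSO. Ratios taken within a library are not affected.

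**Figure D3:**
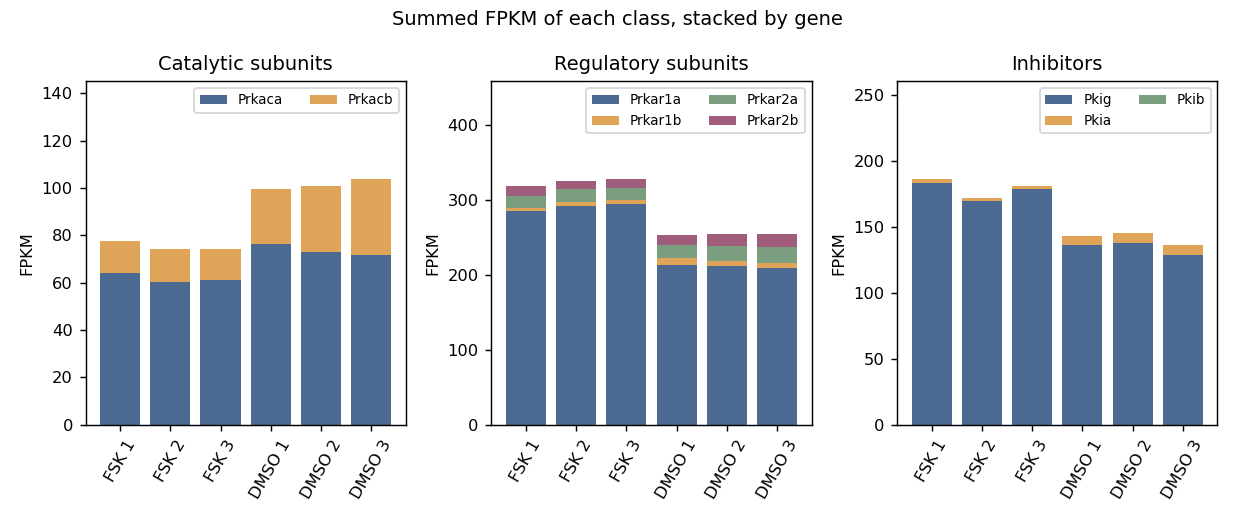
Stacked FPKM of the catalytic, regulatory and inhibitor genes in each library, FSK libraries left of DMSO libraries. Prkar1a makes up most of the regulatory bars and Pkig nearly all of the inhibitor bars, and the Prkacb segment is smaller in every FSK library than in any DMSO library.

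Within the classes the leading gene took a larger share in FSK. Prkaca was 82.0 ± 0.77% of catalytic FPKM in FSK and 72.7 ± 3.99% in DMSO (SD, n = 3 each), with Prkacb as the remainder. Prkar1a was 89.7 ± 0.31% of regulatory FPKM in FSK and 83.2 ± 0.94% in DMSO. Prkar1b made up 1.55 ± 0.16% of it in FSK and 3.20 ± 0.27% in DMSO. Prkar2a and Prkar2b held 5.05 ± 0.18% and 3.68 ± 0.38% in FSK, against 7.55 ± 0.49% and 6.11 ± 0.69% in DMSO. Pkig was 98.5 ± 0.05% of inhibitor FPKM in FSK and 94.9 ± 0.57% in DMSO.

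Ratios taken within a library put these shifts on 1 scale. There were 4.11, 4.37 and 4.4 regulatory FPKM for each catalytic FPKM in FSK, against 2.55, 2.52 and 2.45 in DMSO, which is a 1.71-fold difference. Inhibitor over catalytic FPKM was 2.41, 2.32 and 2.44 in FSK, against 1.44, 1.44 and 1.31 in DMSO, also a 1.71-fold difference. Type I over type II regulatory FPKM was 9.93, 10.7 and 10.8 in FSK, against 7.04, 6.28 and 5.77 in DMSO, a 1.65-fold difference. None of these ratios overlapped between groups, and how often ratios of other genes are separate was not computed. They are ratios of RNA levels, and protein was not measured.

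Ratios between paralogues, which show whether members of a class moved unequally, were separate between the groups for 3 of 4 pairs. Taken singly, 53% of all tested genes were separate in CPM, and no such share was computed for ratios. The ratios are built from the gene values given above and are not separate evidence. With 3 against 3 libraries the smallest two-sided exact permutation p is 0.1, so no pair could pass 0.05. Prkacb over Prkaca was 0.211, 0.233 and 0.217 in FSK, against 0.30, 0.384 and 0.450 in DMSO (log2 difference -0.76, exact permutation p = 0.1, adjusted over the 4 pairs 0.133). Prkar1b over Prkar1a was 0.0159, 0.0193 and 0.0164 in FSK, against 0.0417, 0.0367 and 0.0369 in DMSO (log2 difference -1.16, exact permutation p = 0.1, adjusted 0.133). Pkig over Pkia was 65.1, 68.7 and 62.7 in FSK, against 21.3, 18.4 and 16.9 in DMSO (log2 difference 1.80, exact permutation p = 0.1, adjusted 0.133). For these 3 pairs the groups did not overlap. Prkar2b over Prkar2a was 0.807, 0.637 and 0.744 in FSK, against 0.776, 0.791 and 0.856 in DMSO, and here the groups overlapped (log2 difference -0.15, exact permutation p = 0.3). Leaving out FSK replicate 2 brought that difference to -0.06, and leaving out FSK replicate 1 brought it to -0.23.

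**Figure D4:**
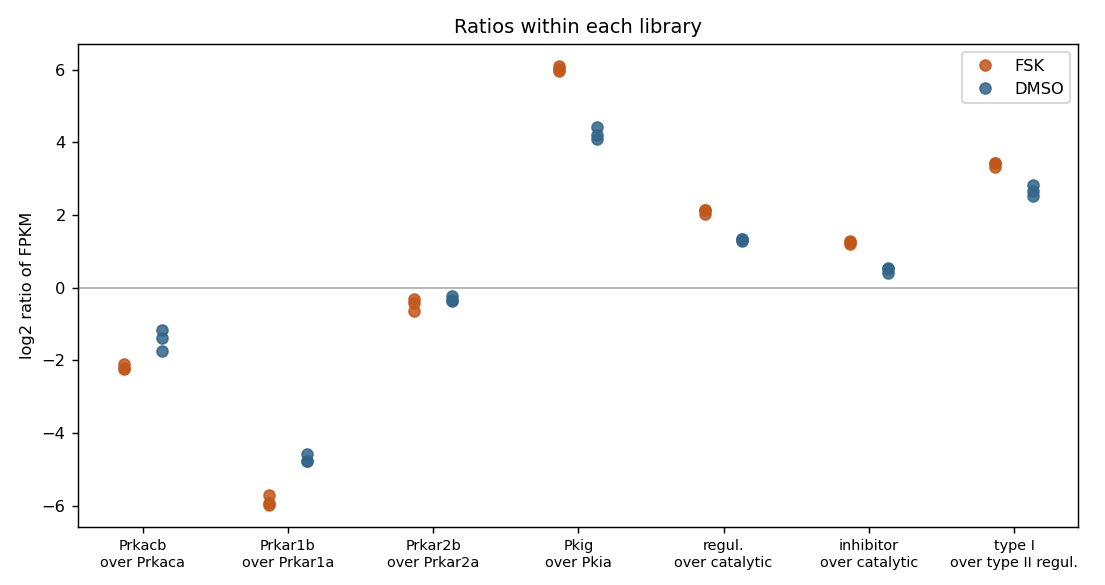
Log2 ratios of FPKM within each library for the 4 paralogue pairs and the 3 ratios between summed classes, with FSK left of DMSO at each position. Points are libraries; the groups are separate at every position except Prkar2b over Prkar2a.

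Some libraries stood at one end of their group for several members. DMSO replicate 1 was the lowest of its group for Prkacb, Prkar2a, Prkar2b and Pkia and the highest for Prkaca, Prkar1a and Prkar1b. In FSK, replicate 2 was the lowest for Prkaca, Prkar2b, Pkia and Pkig and the highest for Prkacb, Prkar1b and Prkar2a.

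The genes with the most similar profiles were sought by Pearson correlation of log2 CPM over the 6 libraries, among 12227 other genes with a symbol. The groups stand apart, so the difference between FSK and DMSO enters each r, and no p is given. The spread between libraries within a group also enters r, as for Prkaca and Prkar2b, whose groups lie close together. Prkar1a was closest to Aatk (r = 0.9995), Atp6v1b2 and Hexa. Pkig was closest to Plekho1 (r = 0.999), Hist1h4b and Ackr3. Prkacb was closest to Pogk (r = 0.9996), Asns and Jak1. Pkia was closest to Herpud1 (r = 0.999), Gas2l3 and Klf4. Prkar1b was closest to Adamts14 (r = 0.998), Pdxk and Bckdhb, and Prkaca to Nkx6-1 (r = 0.996), Myl12a and S100a11. Prkar2b was closest to Cacul1 (r = 0.998), Tada2a and Tarsl2, none of which passed the test. How many genes had an r above 0.95 ranged from 158 for Prkaca and 165 for Prkar2b to 1233 for Pkig and 1412 for Prkar1a.

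Genes that hold PKA in place went both ways. Of 26 anchoring proteins, 21 were tested, of which 4 rose, 7 fell and 10 did not pass, so that 52.4% passed against 39.4% of all tested genes. With the transcript length trend removed, 5 rose and 5 fell. Their median log2 fold change was -0.08, and that of all tested genes was -0.01. Rab32, a small GTPase that anchors PKA at mitochondria, had 68.8, 65.6 and 63.6 CPM in FSK, against 21.1, 23.2 and 23.3 CPM in DMSO (log2 fold change 1.55 ± 0.07, adjusted p = 3.23e-06). Akap2, an anchor tied to the actin cytoskeleton, rose by 1.56 ± 0.19 (adjusted p = 0.000416). Akap6, the anchor of the nuclear envelope in muscle, had 7.99, 11.2 and 10.4 CPM in FSK, against 30.8, 38.6 and 40.6 CPM in DMSO (-1.90 ± 0.16, adjusted p = 6.35e-05). Akap5, an anchor at neuronal synapses, had at most 0.170 CPM in FSK and at least 0.976 CPM in DMSO (-3.21 ± 0.43, adjusted p = 0.000723). At so few counts the size of the Akap5 change is loosely set.

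Among 8 genes for the maturation, export and degradation of PKA subunits and for related kinases, 6 were tested, of which 1 rose, 4 fell and 1 did not pass (83.3% passed, against 39.4% of all tested genes). Their median log2 fold change was -0.59, against -0.01 for all tested genes. Pdpk1, the kinase that phosphorylates the activation loop of the catalytic subunit, fell by 0.85 ± 0.19 (adjusted p = 0.00844). The 2 myristoyltransferase genes, whose products are of the kind that modifies the catalytic subunit, went opposite ways. Nmt2 fell by 0.69 ± 0.09 (adjusted p = 0.000686), to a mean of 6.90 FPKM in FSK, against 11.7 FPKM in DMSO. Nmt1, named here after its values were seen, rose by 0.33 ± 0.05 (adjusted p = 0.00219) and was the more abundant of the pair, with a mean of 124.5 FPKM in FSK, against 104 FPKM in DMSO. Xpo1, the exportin that carries PKI with the catalytic subunit out of the nucleus, had 99.7, 95.3 and 89.7 CPM in FSK, against 140.6, 146.6 and 169.9 CPM in DMSO (-0.68 ± 0.08, adjusted p = 0.000406). Pja2, a ubiquitin ligase for regulatory subunits, fell by 0.49 ± 0.08 (adjusted p = 0.00197).

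Of 13 genes for other cAMP-binding proteins, 6 were tested, of which 2 fell and 4 did not pass. The share that passed was 33.3%, below the 39.4% of all tested genes, and the median log2 fold change was -0.33, against -0.01 for all tested genes. The 2 that fell encode the EPAC exchange factors for Rap GTPases. Rapgef3 had 1.56, 1.23 and 2.27 CPM in FSK, against 7.94, 8.79 and 8.43 CPM in DMSO (-2.31 ± 0.23, adjusted p = 0.000177). Rapgef4 had 0.786, 0.169 and 0.158 CPM in FSK, against 1.36, 1.27 and 1.37 CPM in DMSO (-1.84 ± 0.63, adjusted p = 0.0486). Rapgef4 was -3.02 (adjusted p = 0.0023) without FSK replicate 1. It lost its call without any other single library (adjusted p = 0.0963 to 0.13), which left 1 fall in this list. Over all alternatives the adjusted p of Rapgef4 ran from 0.0023 to 0.13.

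**Figure D5:**
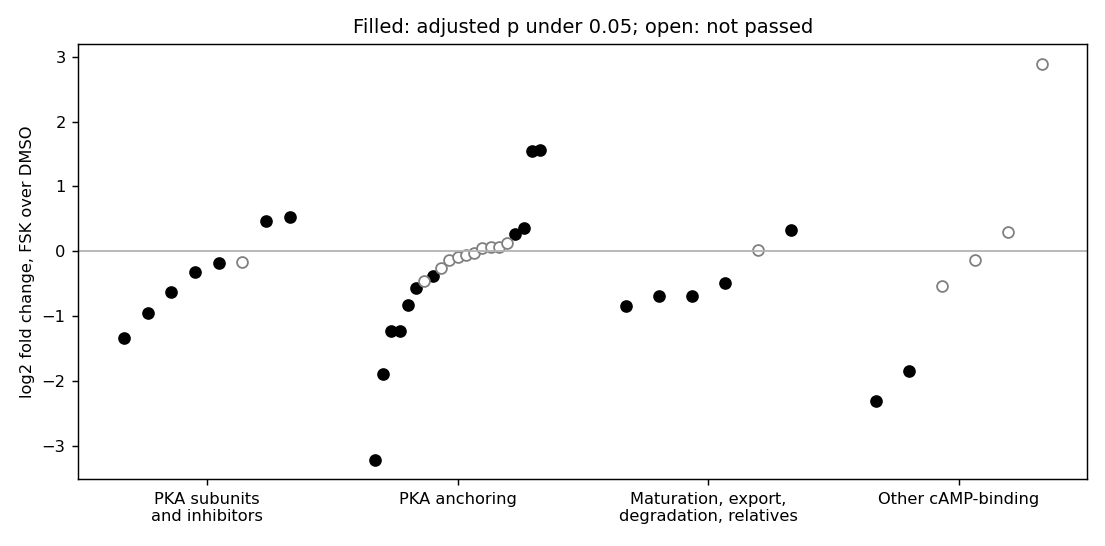
Log2 fold change, FSK over DMSO, of the tested PKA subunit and inhibitor genes and of the tested genes of the 3 neighbouring lists. Each point is a gene, sorted within its list, and filled points passed an adjusted p of 0.05; of the tested genes 2 rose and 5 fell in the first set, 4 and 7, 1 and 4, and 0 and 2 in the others.

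Library totals were 72.7 to 79.0 M counts in FSK and 72.1 to 80.0 M in DMSO. Mitochondrially encoded genes took 3.28 to 3.59% of counts in FSK and 2.75 to 3.03% in DMSO, and whether this difference has a part in the values above was not tested. All 6 glial and glioma markers looked for were present, with a summed FPKM of 2104 to 2126 in FSK and 1544 to 1590 in DMSO, of which Vim made up the most (1383 in FSK and 1153 in DMSO on average). They did not move as one: the mean FPKM was higher in FSK for Gfap (36.1 in FSK and 3.44 in DMSO), S100b (350.3 and 102.9), Vim and Sox10 (264.5 and 156.9), and lower in FSK for Nes (31.5 and 61.7) and Cspg4 (46.7 and 90.4). Whether these differences have a part in the members' values was not tested. Markers of neurons (3 genes), leukocytes (3 genes) and endothelium (2 genes) summed to at most 0.192, 0.135 and 0.00725 FPKM in FSK, and 0.372, 0.0741 and 0 FPKM in DMSO. The neuronal marker Rbfox3 and the endothelial marker Cdh5 had 0 counts in every library.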

How the data were processed

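Total RNA of 3 FSK and 3 DMSO libraries was sequenced as paired ends. Per the submitters' processing notes, tools were HISAT2, StringTie, cutadapt, DESeq2 and edgeR, with no versions, and the genome build was Rnor_6.0. The authors deposited raw counts and FPKM per gene, both named in the file headers. FPKM is 0.0001 where a count is 0, and was set to 0 in sums. The sources used here do not give what 1 count is, whether strand was used, or the annotation's release.

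Differences in counts were tested by edgeR 4.0.16 under R 4.3.3 (TMM factors, filterByExpr defaults, quasi-likelihood F test, no block). Fold changes are FSK over DMSO on the log2 scale. Standard errors come from the F statistic, and intervals are 95%. The fit was first run on data simulated from its own estimates, which cannot show that the model suits these libraries. Replicates were distinct libraries: their chi-square divided by its degrees of freedom was 30.1 to 54.1, far above sampling noise. The replicate numbers were not taken as pairs. Alternatives were other size factors, DESeq2 1.42.0, no filter, limma 3.58.1 with a variance trend on log2(FPKM + pseudocount), a replicate block, removal of a transcript-length trend, and leaving out each library.

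All 9 members are named, with the 4 genes of each list that changed most among those past the threshold whose groups do not overlap, and the 3 most similar genes of each changed member (clone and locus names left out). Members and lists were chosen with earlier results of these data known. The list genes Prkg1 and Cnga2 and the endothelial marker Pecam1 had no matching symbol and were not analysed here. The ratio of Pkib over Pkia, also planned, was not formed, because Pkib had no count in most libraries.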

Additional observations from a re-analysis of the deposited data

How the results depend on the processing

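The 2 rises among the members (Prkar1a and Pkig) and the falls of Pkia, Prkacb and Prkar1b kept their call under all 14 alternatives. The member falls numbered 3 in place of 5 with the replicate block, which took the calls of Prkaca (-0.18, adjusted p = 0.0712) and Prkar2b (-0.31, adjusted p = 0.067), and 3 to 5 with each library left out. Over all genes the block gave 2160 rises and 2165 falls. Libraries with the same number did not deviate together (r of -0.041, 0.018 and -0.035 for numbers 1 to 3), and of the FSK libraries only replicate 2 correlated best with its own number. The number of other cAMP-binding genes that fell was 1 in place of 2 with no filter on low counts and with the transcript length trend removed, and 1 to 2 with each library left out. The number that rose was 1 in place of 0 with limma at a pseudocount of 0.1, and 0 to 1 with each library left out. The cause of these shifts was not tested. Adding a pseudocount to FPKM shrinks the change of low genes: with limma at a pseudocount of 5 the log2 fold change was -0.66 for Pkia, -0.39 for Prkar1b, -0.59 for Akap6, -0.12 for Akap5, -0.45 for Rapgef3, -0.09 for Rapgef4, -0.56 for Pdpk1, 0.90 for Akap2 and 1.03 for Rab32. At a pseudocount of 1 it was -1.24 for Rapgef3, -0.37 for Rapgef4 and -0.50 for Akap5, and at 0.1 it was -1.97 for Akap5. No named gene or ratio for which alternatives were computed changed sign; the medians of the lists and Nmt1 were not recomputed. The median over all genes, -0.01, was 7e-04 with the length trend removed. With limma at pseudocounts of 1, 0.1 and 5 that median was -0.06, -0.08 and -0.02. Rises made up 41.4, 41.4 and 41.3% of the calls in these limma fits, against 49.7% in the main fit. Over all genes 2160 to 3010 rose and 2076 to 3390 fell across the alternatives, against 2772 and 2804. With each library left out, the log2 difference ranged from -0.92 to -0.63 for Prkacb over Prkaca, -1.24 to -1.10 for Prkar1b over Prkar1a, -0.23 to -0.06 for Prkar2b over Prkar2a and 1.73 to 1.89 for Pkig over Pkia. Depth limits Pkib, which had 8 counts at most.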
